A study of Mus musculus with 2 samples.

Results

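The genes described here encode 10 amino acid transporters of the solute carrier (SLC) families. They are Slc7a5, Slc1a4, Slc1a5, Slc3a2, Slc7a1, Slc7a3, Slc7a6, Slc38a1, Slc38a2 and Slc6a9. Members were taken by gene symbol from the deposited gene table, and all 10 were found among its 54680 loci. The cells were CT26, a mouse colon cancer line. In one culture, Setdb1, the gene of an enzyme that methylates lysine 9 of histone H3, was knocked down by a short hairpin RNA delivered with lentivirus (the shSetdb1 library). The other received the control vector, under the library name CT26shCtrl, and is given as wild type (the vector library). Both were grown in RPMI medium with serum and collected after 6 days, when the labels call the knockdown cells differentiated. Each of the 2 groups had 1 library, so no difference below has a replicate check, and every ratio compares those libraries and not the conditions. The labels do not say how many hairpins or clones were used, nor whether the vector expressed any hairpin.

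Amino acids cross the plasma membrane through carriers that differ in substrate and in coupling. Slc7a5 (LAT1) exchanges large neutral amino acids and Slc7a6 (y+LAT2) exchanges cationic for neutral ones, and both reach the cell surface only when bound to the glycoprotein heavy chain Slc3a2. Slc1a5 (ASCT2) and Slc1a4 (ASCT1) are sodium-dependent neutral exchangers, of which the first also carries glutamine. Slc7a1 (CAT1) and Slc7a3 (CAT3) carry arginine and lysine, Slc38a1 (SNAT1) and Slc38a2 (SNAT2) bring in glutamine and other small neutral amino acids with sodium, and Slc6a9 (GlyT1) takes up glycine. When amino acids are short, the kinase Gcn2, encoded by Eif2ak4, phosphorylates the initiation factor eIF2, translation of the transcription factor Atf4 rises, and Atf4 binds amino acid response elements in several genes of transporters and of amino acid synthesis.

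Promoter sequence was examined because most of the members had lower levels in the same library. The RefSeq table on GRCm38.p6 holds a window of 300 bases around annotated starts, 250 before and 50 after, for 6 of the 10 members. These are Slc1a4, Slc38a2, Slc3a2, Slc6a9, Slc7a1 and Slc7a6, with 10 windows in all. The core of the amino acid response element, written TGATGNAA and searched on both strands, was found in the window of 1 of the 6, Slc1a4. Of all 32851 windows in the table, 3.97% hold these letters, and of the 9742 windows of genes at 1 FPKM or more, 2.11% do. The E-box CACGTG was in none of the members' windows, against 7.15% of all windows and 10.5% of those of genes at 1 FPKM or more. The GC box GGGCGG was in at least 1 window of all 6, in 7 of the 10 windows, against 35.7% of all windows and 65.2% of those of genes at 1 FPKM or more. In the Slc1a4 window no match overlaps another. A match of letters is a description and not a binding site.

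The first sequence below is the Slc1a4 promoter, printed because it holds the match, and it runs 4 bases past the start so that the match is whole. The second, of Slc38a2, comes from a gene with nearly the same ratio and no match of TGATGNAA in its window. Bases outside the windows were not searched, so a gene without a match here may hold one elsewhere. The third, of Slc7a6, comes from the expressed member that differed least. The GC box of that Slc7a6 window lies past its start and is not in the printed stretch, which has no capitals. Each is read 5′ to 3′ on the strand of its gene. Capitals mark TTGCATCA, which is TGATGNAA on the other strand, and GGGCGG or CCGCCC, the GC box on either strand. The printed stretches are chr11:20332710-20332963 on the minus strand, chr15:96699729-96699978 on the minus strand and chr8:106168604-106168853 on the plus strand.
Slc1a4: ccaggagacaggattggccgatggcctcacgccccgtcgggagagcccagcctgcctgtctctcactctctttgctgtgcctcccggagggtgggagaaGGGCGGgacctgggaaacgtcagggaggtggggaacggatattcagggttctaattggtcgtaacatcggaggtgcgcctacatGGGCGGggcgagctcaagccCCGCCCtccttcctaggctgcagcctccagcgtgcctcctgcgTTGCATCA
Slc38a2: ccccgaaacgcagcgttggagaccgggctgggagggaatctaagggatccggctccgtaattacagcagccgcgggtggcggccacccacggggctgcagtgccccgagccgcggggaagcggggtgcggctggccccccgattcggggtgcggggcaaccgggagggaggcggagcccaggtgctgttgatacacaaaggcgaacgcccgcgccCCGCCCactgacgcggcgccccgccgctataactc
Slc7a6: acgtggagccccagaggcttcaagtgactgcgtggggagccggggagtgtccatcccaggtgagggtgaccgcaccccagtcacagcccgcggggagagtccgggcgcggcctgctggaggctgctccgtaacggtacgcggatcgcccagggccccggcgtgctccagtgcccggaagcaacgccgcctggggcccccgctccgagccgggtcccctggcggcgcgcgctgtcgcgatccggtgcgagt

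The response element match of Slc1a4 covers bases -4 to 4 around its start and stands at the end of the printed sequence, with 3 GC boxes before it. The same search was made in the 55 other amino acid transporters and in 18 known targets of the amino acid response, lists described further below. Windows existed for 42 and 17 of these genes, and 2 and 6 of them held a match. The sites are printed with 10 bases on either side, on the strand that carries TGATG, with the match in capitals, so that the member's site can be read beside all sites found in those lists. Slc7a11 encodes the cystine and glutamate exchanger and Slc7a7 a light chain that exchanges cationic amino acids, and each has 2 matches.
Slc1a4: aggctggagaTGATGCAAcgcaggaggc
Slc7a11, first: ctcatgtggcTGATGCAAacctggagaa
Slc7a11, second: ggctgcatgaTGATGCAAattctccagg
Slc7a7, first: cgcttgggctTGATGAAAggttcactgg
Slc7a7, second: acctagaagcTGATGCAAcagcttcccc
Asns: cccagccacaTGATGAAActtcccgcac
Chac1: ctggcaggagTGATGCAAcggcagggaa
Fgf21: cctggacggaTGATGCAAtgggggggtc
Pycr1: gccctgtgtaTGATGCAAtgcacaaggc
Trib3: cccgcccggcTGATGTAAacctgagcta
Vldlr: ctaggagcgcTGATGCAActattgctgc
The Slc1a4, Chac1, Fgf21, Pycr1, Vldlr and both Slc7a11 sites carry TGATGCAA, as does the second Slc7a7 site, while Asns and the first Slc7a7 site have TGATGAAA and Trib3 has TGATGTAA. Of the genes shown, Fgf21 had the lowest read ratio, 0.0537 (0.0013 to 0.340), from 18 reads to 1, and Vldlr had the highest, 1.02 (0.968 to 1.08), with an interval that includes 1.

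Levels are given in FPKM, fragments scaled to the length of the gene model and to depth, as the authors deposited them. Whole reads could be recovered from 100% of the values above 0, within 0.01 of a read. The vector library held 18421604 reads and the shSetdb1 library 19045830. Both had been scaled to the same depth, so a ratio of FPKM still carries the 1.03 ratio of the totals. The log2 ratios compare FPKM + 1 in the shSetdb1 library with FPKM + 1 in the vector library, and this pseudocount of 1 understates the change of low genes. Read ratios are relative to each library's own total, with a 95% Clopper-Pearson interval that covers counting error only, since reads copied by PCR are not independent molecules. Setdb1, the targeted gene, was at 10.4 FPKM in the vector library and 2.47 FPKM in the shSetdb1 library, a read ratio of 0.229 (0.202 to 0.259). Its model overlaps Cers2 on the other strand. Whether reads were counted by strand is not given in the sources used here.

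The label of the line was compared with marker lists. Of 10 colon epithelial markers, Cdx1, Epcam, Cdh1 and Lgr5 had 0 reads in both libraries, and 3 (Krt18, Krt19 and Krt20) reached 1 FPKM, all higher in the shSetdb1 library. Krt19, with 1 and 53 reads, reached that level in the shSetdb1 library alone, so it could only be higher. The summed level of the 10 was 43.2 FPKM in the vector library and 128 FPKM in the shSetdb1 library. All 6 mesenchymal markers reached 1 FPKM in at least 1 library and summed to 940 and 970 FPKM, of which Vim made up 752 and 835. Col3a1 reached 1 FPKM in the vector library alone (2.68 and 0.887 FPKM), so it could only be lower. Pdgfra reached it in the shSetdb1 library alone (0.501 and 1.77 FPKM), so it could only be higher. Their read ratios were 0.320 (0.266 to 0.383) and 3.43 (2.72 to 4.36), and neither was past 2-fold on log2(FPKM + 1). The read ratio was 0.722 for Col1a1 (0.688 to 0.758), 0.652 for Col1a2 (0.640 to 0.663) and 1.05 for Pdgfrb (0.971 to 1.13). Of 7 markers of blood and endothelium, 6 had 0 reads in both libraries and Ptprc had 0 and 4. The part of the keratin difference in the transporter ratios was not tested. In a bulk library, fewer cells of a kind and less RNA per cell cannot be told apart.

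Of the 10 transporter genes, 8 reached 1 FPKM in both libraries and Slc38a1 and Slc7a3 in neither. Of the 8, 7 (87.5%) were at least 2-fold lower in the shSetdb1 library and 0 were at least 2-fold higher. Slc38a1 and Slc7a3, below that level, were not counted. Among the 10671 genes at 1 FPKM or more in either library, 4.85% were at least 2-fold lower and 6.81% at least 2-fold higher. The median log2 ratio of the 8 was -2.03, while that of the 10671 genes was -0.00039. Among 124 solute carrier genes outside the lists used here that reached the same level, 7 (5.65%) were at least 2-fold lower and 9 (7.26%) at least 2-fold higher, with a median of -0.0104. Together the 10 members took 81733 reads, 0.444% of the vector library, and 21654 reads, 0.114% of the shSetdb1 library.

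**Figure D1:**
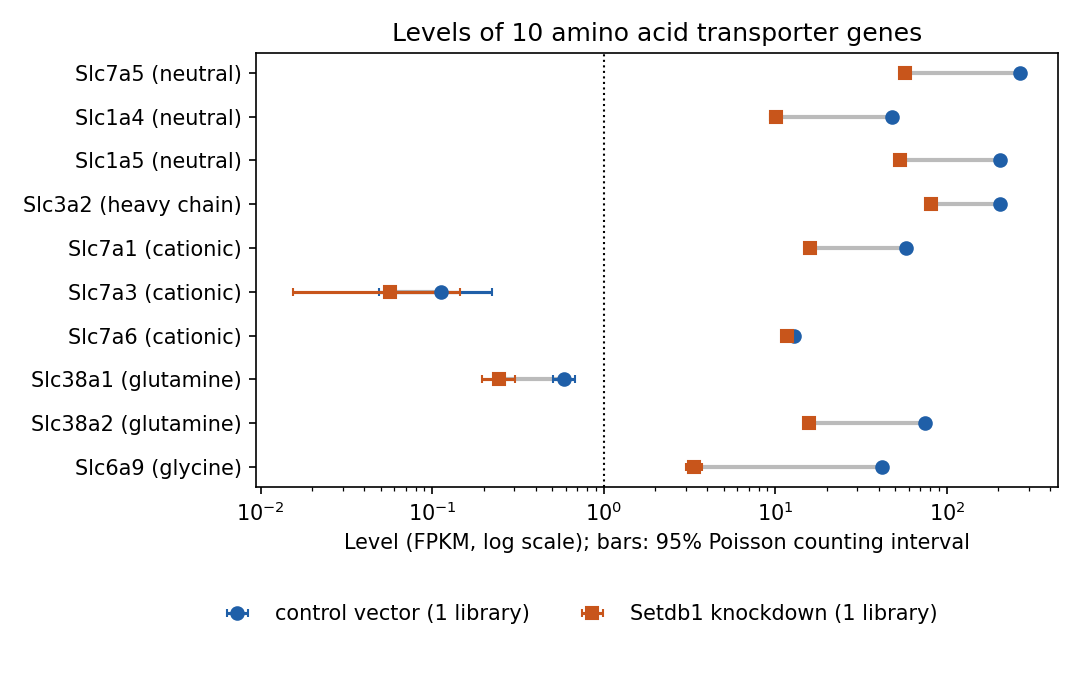
Level of each member in FPKM on a logarithmic axis, with the vector library (control) as circles and the shSetdb1 library (knockdown) as squares, 1 library each, and 95% Poisson counting intervals as bars. The squares of 7 members lie well to the left of their circles, those of Slc7a6 nearly coincide at 12.9 and 11.6 FPKM, and Slc38a1 and Slc7a3 lie below the dotted line at 1 FPKM in both libraries.

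The 3 neutral amino acid transporters were each at least 2-fold lower in the shSetdb1 library. Slc7a5 (ENSMUSG00000040010, chromosome 8, 121881150 to 121907694, minus strand, GRCm38) was at 267 FPKM (18561 reads) in the vector library and 57.1 FPKM (3968 reads) in the shSetdb1 library. The level was 4.68-fold lower and the log2 ratio was -2.21, with a read ratio of 0.207 (0.200 to 0.214). It was the most abundant of the 10 in the vector library, at rank 210 among all loci, and stood at rank 1131 in the shSetdb1 library.

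Slc1a5 (ENSMUSG00000001918, chromosome 7, 16781340 to 16798274, plus strand) was at 205 FPKM in the vector library and 53.4 FPKM in the shSetdb1 library. Its log2 ratio was -1.92 and its read ratio 0.252 (0.243 to 0.261). Its family partner Slc1a4 (ENSMUSG00000020142, chromosome 11, 20302180 to 20332713, minus strand), which prefers alanine, serine and cysteine, was at 47.7 FPKM (3511 reads) and 10.1 FPKM (741 reads). The log2 ratio of Slc1a4 was -2.14 and the read ratio 0.204 (0.188 to 0.221). Both exchangers were lower in the same library, and the read ratio of Slc1a5 was 1.23 times that of Slc1a4, with a counting interval of 1.13 to 1.35. Per length, Slc1a4 amounted to 23.3% of the Slc1a5 level in the vector library and 18.9% in the shSetdb1 library.

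Slc3a2, the heavy chain that carries Slc7a5 and Slc7a6 to the surface, differed less than its main partner. The gene (ENSMUSG00000010095, chromosome 19, 8706882 to 8723369, minus strand) was at 204 FPKM in the vector library and 80.5 FPKM in the shSetdb1 library. Its log2 ratio was -1.33 and its read ratio 0.382 (0.370 to 0.395), which is 1.85 times the read ratio of Slc7a5 (1.76 to 1.94). Slc3a2 was below Slc7a5 in the vector library, at a ratio of levels of 0.762, and above it in the shSetdb1 library, at 1.41. It was the most abundant of the 10 members in the shSetdb1 library.

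The heavy chain was then set against its 6 light chains, Slc7a5, Slc7a6, Slc7a7, Slc7a8, Slc7a10 and Slc7a11. Their summed level was 283 FPKM in the vector library and 69.8 FPKM in the shSetdb1 library, so that the ratio of heavy chain to light chains was 0.721 and 1.15. Slc7a5 made up 94.6% of the light chain level in the vector library and 81.8% in the shSetdb1 library, and Slc7a6 made up 4.57% and 16.7%. Slc7a8 and Slc7a10 had 0 reads in both, and Slc7a7 overlaps Oxa1l on the other strand. These are shares of messenger RNA and say nothing of protein.

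**Figure D2:**
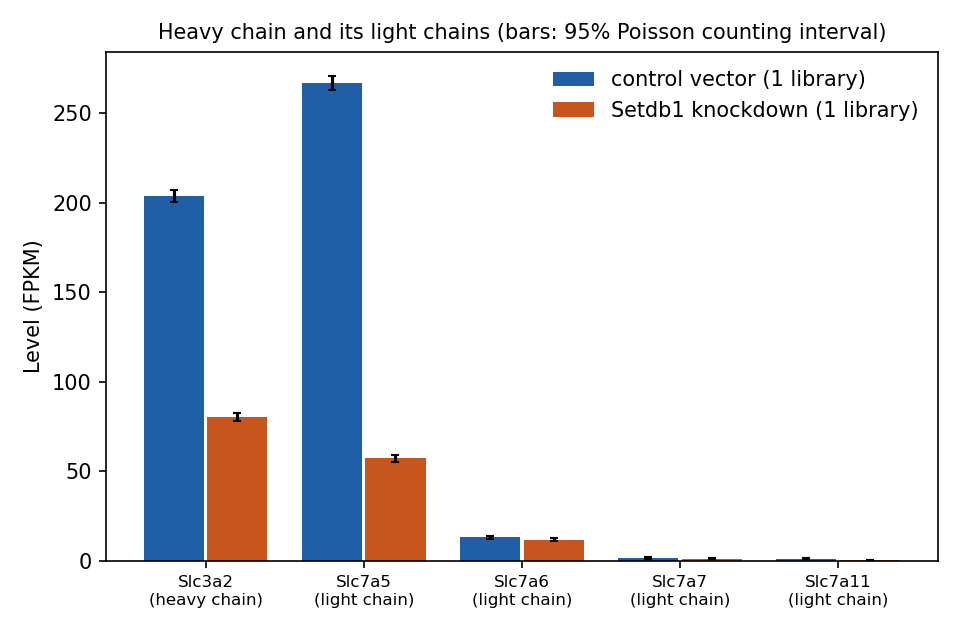
Level in FPKM of the heavy chain Slc3a2 and of the 4 light chains with reads, vector library and shSetdb1 library side by side, 1 library each, with 95% Poisson counting intervals. The vector library has Slc7a5 (267) above Slc3a2 (204), while the shSetdb1 library has Slc3a2 (80.5) above Slc7a5 (57.1), and Slc7a6 is nearly level.

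Among the cationic amino acid transporters 1 gene was far lower, 1 was nearly level and 1 was close to undetected. Slc7a1 (ENSMUSG00000041313, chromosome 5, 148327410 to 148399904, minus strand) was at 57.6 FPKM (12440 reads) in the vector library and 15.9 FPKM (3433 reads) in the shSetdb1 library. Its log2 ratio was -1.79 and its read ratio 0.267 (0.257 to 0.277), slightly above that of Slc1a5 (1.06 times, 1.01 to 1.11).

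Slc7a6 (ENSMUSG00000031904, chromosome 8, 106168857 to 106198706, plus strand) was the expressed member that differed least. It had 1106 reads (12.9 FPKM) in the vector library and 995 reads (11.6 FPKM) in the shSetdb1 library. Its log2 ratio was -0.14 and its read ratio 0.870 (0.798 to 0.949), below 1 by more than counting error and 4.21 times the ratio of Slc7a5 (3.83 to 4.62). Of the 10671 genes, 39.5% had a lower log2 ratio. Slc7a3 (ENSMUSG00000031297, chromosome X, 101079210 to 101086020, minus strand) had 8 reads in the vector library and 4 in the shSetdb1 library, which gives 0.113 and 0.0564 FPKM. Its read ratio of 0.484 had an interval of 0.107 to 1.81, so a difference was not detectable at this depth. In neither library did Slc7a3 reach 1% of the Slc7a1 level, being at 0.196% and 0.355% of it.

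Of the 2 members that are glutamine transporters of the SNAT type, Slc38a2 was abundant and Slc38a1 was not. Another 2 genes listed in that class reached 1 FPKM, of which Slc38a4 is given below. The other, Slc38a10, named after its values were seen, was at 26.6 FPKM in the vector library and 41.6 FPKM in the shSetdb1 library. Its read ratio was 1.51 (1.45 to 1.58). Slc38a2 (ENSMUSG00000022462, chromosome 15, 96687392 to 96699730, minus strand), the carrier known to be induced when amino acids are withdrawn, was at 74.9 FPKM (12401 reads) in the vector library and 15.8 FPKM (2616 reads) in the shSetdb1 library. Its log2 ratio was -2.18 and its read ratio 0.204 (0.196 to 0.213). Slc38a1 (ENSMUSG00000023169, chromosome 15, 96571418 to 96642913, minus strand) had 189 reads (0.585 FPKM) and 79 reads (0.245 FPKM). Its read ratio was 0.404 (0.307 to 0.528), while its log2 ratio was only -0.35, since the pseudocount exceeds its level. A pseudocount of 0.1 gave -0.99, and log2(CPM + 1) of the recovered reads gave -1.13.

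The 2 SNAT members are neighbours, which the choice of members did not use. The gap between Slc38a1 and Slc38a2 is 44.5 kb, and Slc38a4, a SNAT gene on the same strand, lies 295 kb beyond Slc38a2. Slc38a4, named after its values were seen, was at 5.19 FPKM in the vector library and 4.80 FPKM in the shSetdb1 library, a read ratio of 0.895 (0.777 to 1.03). That ratio was 4.39 times the Slc38a2 ratio (3.78 to 5.08), and the Slc38a2 ratio was itself 0.505 of the Slc38a1 ratio (0.385 to 0.667). The genes of this stretch thus differed unequally, with Slc38a2 the lowest in ratio and Slc38a4 within counting error of no difference.

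The glycine transporter had the lowest ratio of the set. Slc6a9 (ENSMUSG00000028542, chromosome 4, 117834506 to 117875198, plus strand) was at 41.7 FPKM (4019 reads) in the vector library and 3.35 FPKM (323 reads) in the shSetdb1 library. The level was 12.4-fold lower and the log2 ratio was -3.29, with a read ratio of 0.0777 (0.0692 to 0.0871). Its model overlaps B4galt2 on the minus strand, which had 1526 reads in the vector library and 1203 in the shSetdb1 library, so reads of either gene cannot be told apart without strand. The other 9 members overlap no gene with reads.

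Slc38a2, Slc1a4 and Slc7a5, from different families, were set side by side after their values were seen, because their read ratios lay closest. Those of Slc1a5, Slc7a1 and Slc3a2 were higher, at 0.252, 0.267 and 0.382. The read ratios of Slc38a2, Slc1a4 and Slc7a5 were 0.204, 0.204 and 0.207, and none of the 3 pairs differed beyond counting error. Since the genes were chosen for close ratios, these intervals cannot test whether the ratios are equal. Relative to Slc7a5 the ratio was 0.987 for Slc1a4 (0.904 to 1.08) and 0.987 for Slc38a2 (0.934 to 1.04), and Slc38a2 stood at 0.9995 of Slc1a4 (0.913 to 1.09). The genes lie on chromosomes 15, 11 and 8, and their levels in the vector library ranged from 47.7 to 267 FPKM. Slc6a9 lay apart from them, at 0.376 of the Slc7a5 ratio (0.333 to 0.423).

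The order of levels per length changed between the libraries. In the vector library it ran from Slc7a5 through Slc1a5, Slc3a2, Slc38a2, Slc7a1, Slc1a4, Slc6a9, Slc7a6 and Slc38a1 to Slc7a3. Slc1a5 and Slc3a2 did not differ there beyond counting error, with Poisson intervals of 202 to 208 and 200.3 to 207 FPKM. In the shSetdb1 library the order was Slc3a2, Slc7a5, Slc1a5, Slc7a1, Slc38a2, Slc7a6, Slc1a4, Slc6a9, Slc38a1 and Slc7a3. Slc7a1 and Slc38a2 had overlapping intervals there (15.4 to 16.4 and 15.2 to 16.4 FPKM). Slc7a6 stood below Slc1a4 and Slc6a9 in the vector library and above both in the shSetdb1 library, while its own level differed little.

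**Figure D3:**
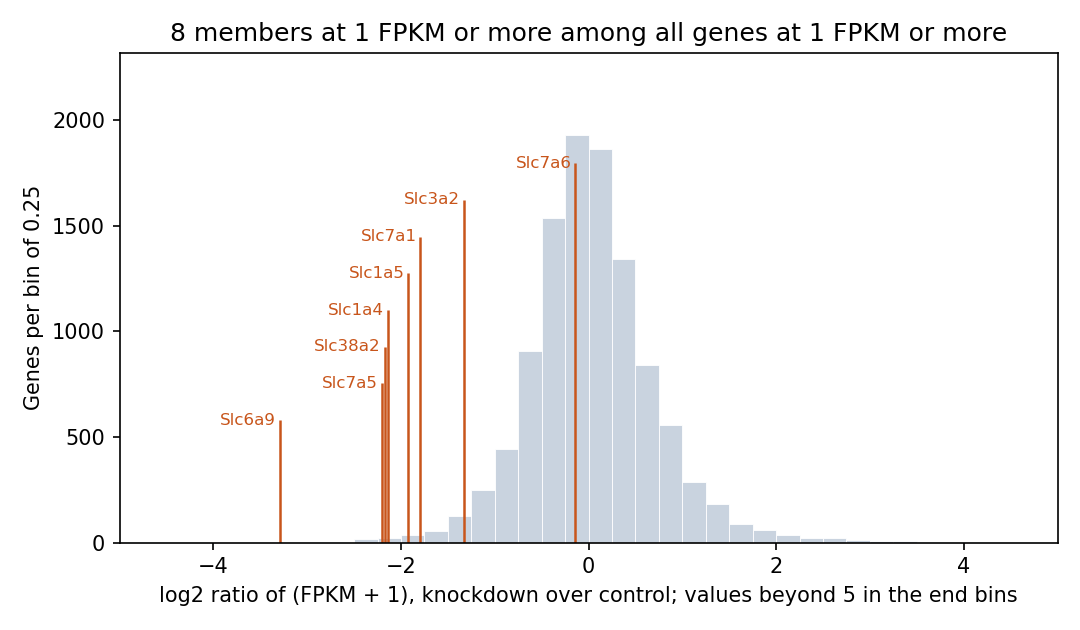
Number of genes by log2 ratio of (FPKM + 1), shSetdb1 over vector library, in bins of 0.25 for the 10671 genes at 1 FPKM or more in either library, with a line at the ratio of each of the 8 members among them (line heights carry no value). Slc7a6 lies in the body of the distribution at -0.14, and the other 7 lie between -1.33 and -3.29.

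By rank from the lowest of the 10671 ratios, Slc6a9 was at 12, Slc7a5 at 40, Slc38a2 at 41, Slc1a4 at 45, Slc1a5 at 64, Slc7a1 at 84, Slc3a2 at 220 and Slc7a6 at 4219. The first 6 of these each have at most 0.778% of genes below them, and Slc3a2 has 2.05% of genes below it.

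The remaining carriers of amino acids were counted in the same way. Of 55 other amino acid transporter genes of the plasma membrane, lysosome and mitochondrion, 20 reached 1 FPKM in either library, 1 (5%) was at least 2-fold lower and 0 at least 2-fold higher, beside 4.85% and 6.81% of all genes. Their median log2 ratio was -0.12, with 11 below 0 and 9 above. The 1 lower gene was Sfxn1, a mitochondrial serine transporter, with 1589 reads in the vector library and 586 in the shSetdb1 library (log2 ratio -1.20). The highest ratio was that of Slc15a4, a lysosomal transporter of histidine and peptides, from 11.0 to 20.1 FPKM (0.82), and the most abundant was the mitochondrial carrier Sfxn3, from 67.3 to 44.4 FPKM (-0.59). By place, the 6 lysosomal genes had a median of 0.0929 and the 8 mitochondrial genes one of -0.0586. The difference between these genes and the 10 members was not tested, since members were chosen with results known.

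Low levels kept some large differences of that list outside the 2-fold count. Slc7a11, named after its values were seen, had 274 reads (1.05 FPKM) in the vector library and 25 (0.0959 FPKM) in the shSetdb1 library. Its read ratio was 0.0883 (0.0561 to 0.133), near that of Slc6a9, but its log2 ratio of -0.90 did not reach 2-fold with the pseudocount of 1. Like Slc7a7 and Slc36a4, it reached 1 FPKM in the vector library alone. The other 35 transporters were at most at 0.545 FPKM, and 23 of them had 0 reads. They had 296 reads in the vector library and 226 in the shSetdb1 library in all. The highest of them in the vector library was Slc1a1, a glutamate and aspartate transporter (likewise chosen with its values known), with 63 reads (0.545 FPKM) there and 1 (0.00865 FPKM) in the shSetdb1 library. Its read ratio of 0.0154 (0.0004 to 0.0887) was below those of Slc7a11 and Slc6a9, though it rests on 1 read in the shSetdb1 library. None of the 13 other genes listed as neutral transporters reached 1 FPKM, so Slc7a5, Slc1a4 and Slc1a5 were the only genes of that class above this level.

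**Figure D4:**
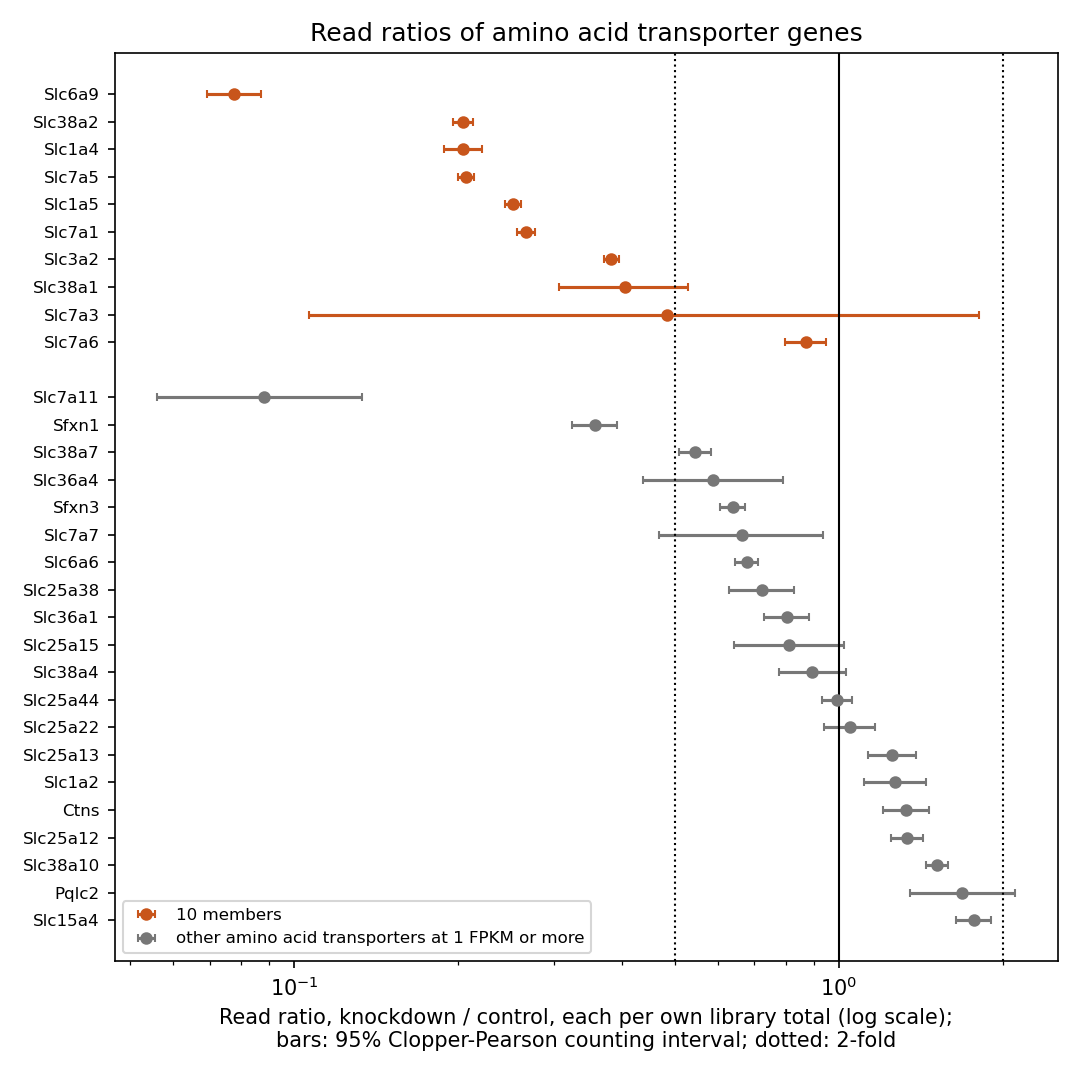
Read ratio, knockdown over control and each relative to its own library total, on a logarithmic axis with 95% Clopper-Pearson counting intervals, for the 10 members and the 20 other amino acid transporters at 1 FPKM or more (Slc66a1 under its table name Pqlc2). Members other than Slc7a6 lie below 0.5, with wide intervals for Slc7a3 and Slc38a1, while the others spread around 1 from Slc7a11 at 0.0883 to Slc15a4 at 1.77.

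Of 18 known targets of the amino acid response, 16 reached 1 FPKM, 12 (75%) were at least 2-fold lower and 1 (6.25%) at least 2-fold higher, with a median log2 ratio of -1.59. Of all genes, 4.85% were lower and 6.81% higher by this rule. Stc2 and Fgf21 reached 1 FPKM in the vector library alone, so either could only be lower. Trib3, a pseudokinase that restrains Atf4, was lowest, from 362 to 41.6 FPKM (-3.09). Asns, the asparagine synthetase, went from 424 to 129 FPKM (-1.71), and Chac1, which degrades glutathione, from 84.8 to 20.4 FPKM (-2.00). The transcription factor gene Atf5 had a ratio of -1.98, with a model that overlaps Nup62. Enzymes of serine and one-carbon metabolism were also among the 12, with ratios of -1.61 for Phgdh, -1.15 for Psat1, -1.29 for Psph (whose model overlaps Cct6a), -1.93 for Shmt2 and -1.76 for Mthfd2, as were those of proline synthesis, Aldh18a1 at -1.56 and Pycr1 at -1.91. The secreted glycoprotein gene Stc2 had a ratio of -1.20. The highest was Ddit4, an inhibitor of mTORC1 signalling that also responds to low oxygen, from 45.3 to 117 FPKM (1.35). The 3 within 2-fold were Fgf21 at -0.93, Sesn2, another inhibitor of mTORC1 signalling, at -0.56 and Vldlr, a lipoprotein receptor, at 0.08. The 2 targets under 1 FPKM were Cth, with 27 and 2 reads, and Gdf15, with 3 and 17.

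Of 17 regulators of transporter genes or proteins, 15 reached 1 FPKM, 4 (26.7%, beside 4.85% of all genes) were at least 2-fold lower and 1 (6.67%, beside 6.81%) at least 2-fold higher, with a median of -0.55. Atf4 itself went from 479 to 178 FPKM (-1.42), with a read ratio of 0.359 (0.350 to 0.368). Myc, whose product is known to raise Slc1a5 and Slc7a5, went from 86.5 to 30.4 FPKM (-1.48). Ddit3, an Atf4 partner and target, had a ratio of -1.06, and its model overlaps Mars. Nedd4, a ubiquitin ligase, had one of -1.42.

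Of the 4 eIF2 kinase genes, 0 were at least 2-fold lower and 1 was at least 2-fold higher, beside 4.85% and 6.81% of all genes. With so few genes, a count of 0 lower is near the share of all genes and is no result about the kinases. Eif2ak1 had a log2 ratio of -0.11 and Eif2ak3 one of 0.30. Eif2ak4, which encodes the sensor of uncharged tRNA, had 260 reads in the vector library and 256 in the shSetdb1 library, a log2 ratio of -0.01. Eif2ak2, an interferon-induced kinase that binds double-stranded RNA, was the 1 higher gene, from 1.46 to 4.35 FPKM (1.12). Messenger RNA levels do not give kinase activity or Atf4 protein. The part of Atf4 or Myc in the transporter ratios was not tested.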

How the data were processed

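RNA sequencing libraries were made from total RNA of 2 CT26 cultures with a NEBNext Ultra kit, per the labels' protocols. HISAT2, featureCounts 1.5.0-p3 and GRCm38 are named in the submitters' processing notes. Values are FPKM as deposited, a unit the authors give in the name of their table. Positions of all 10 members equal those of GENCODE M21. Gene model lengths, another quantity per the file headers, were used to recover reads from FPKM, with a common depth of 18731117 in both libraries.

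Groups came from the genotype label, and columns were matched by library name. Genes were counted from 1 FPKM upwards in either library and at a 2-fold difference on log2(FPKM + 1). With 1 library per group there is no test between conditions. The members and lists were chosen with earlier results of these data known. Named genes are the members, Setdb1 and, of each list, genes past 2-fold and the extremes. All others (light chains, markers, eIF2 kinases, overlapping or neighbouring genes, genes with a promoter match, those within 2-fold and those near or under 1 FPKM) were named after their values were seen. The calculations were repeated with other pseudocounts, filters, scalings, thresholds, units and sums over loci with the same protein match. The 2-fold calls and the intervals were tried on simulated counts that held Poisson counting error only. Recovery of reads was tried there with the depth known, so that trial could not fail. Python 3.11.15, numpy 2.4.6, pandas 2.3.3 and scipy 1.17.1 were used.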

Additional observations from a re-analysis of the deposited data

How the results depend on the processing

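All 7 members that were at least 2-fold lower stayed so under each of the 7 alternatives that bear on single genes (49 of 49 values). Of 427 alternative values of 61 single genes, 364 stayed within counting error and 63 moved. Reversal was counted only for genes at least 2-fold different as first calculated, and 0 of their values reversed. A gene with a log2 ratio nearer 0 could change sign uncounted, as Slc25a44 did, from 0.034 to -0.025 when scaled by the upper quartile. Of 111 alternative values of the list and whole-table results, 88 differed by less than counting error or by at most 1.5 times in a count, 23 moved and 0 reversed. The members' median was -1.86 without a filter, as Slc38a1 and Slc7a3 then enter, and -2.12 on log2(CPM + 1). At a 4-fold threshold 4 members were lower. Other transporters were lower in 2 genes with a pseudocount of 0.1, and likewise 2 in CPM units. At 1.5-fold, 4 were lower and 2 higher, and at 4-fold 0 were lower. The median of response targets was -1.75 with a pseudocount of 0.1, -1.43 without a filter, -1.66 with a filter at 5 FPKM, -1.63 when each library was scaled by its own reads, -1.65 when scaled by the upper quartile, -1.65 when the 100 highest genes were left out of the scaling and -1.71 in CPM units. For Setdb1 the ratio was -2.04 with the pseudocount of 0.1, and in CPM units it was -2.06. Over all genes, 1134 were higher and 870 lower with a pseudocount of 0.1, 1804 and 1523 at 1.5-fold, and 116 and 56 at 4-fold. Apart from thresholds, filters and pseudocounts, which act by construction, the cause was not tested. No paired analysis was possible because there was a single library per group, and none could be left out. Depth limits Slc7a3, with 8 reads in the vector library and 4 in the shSetdb1 library.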
